A study of Oryza sativa with 6 samples.

Results

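Tonoplast intrinsic proteins (TIPs) are the aquaporins of the vacuolar membrane, and 4 rice TIP genes were followed here through root types and salt treatment: TIP1;1 (Os03g0146100), TIP1;2 (Os01g0975900), TIP2;1 (Os02g0658100) and TIP2;2 (Os06g0336200). They were chosen by identifier from 37942 gene models, and all 4 were found. A reference gene table lists them also as TIP1-1, TIP1-2, TIP2-1 and TIP2-2, the form used from here on. Messenger RNA came from L-type lateral, S-type lateral and nodal roots of rice with the genotype label Mulai, after 7 days in 50 mM NaCl or under control conditions. Nodal roots arise from the stem, and of the laterals they carry, the S-type stays short and thin while the L-type is long and bears further branches. The 6 groups were salt L-type, salt S-type, salt nodal, control L-type, control S-type and control nodal, with 1 library each, so no value has a replicate. Neither the number of plants per library nor a shared plant of origin is given.

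Aquaporins are membrane channels that let water cross down its gradient, and some also pass small neutral solutes. TIPs sit in the membrane of the vacuole, the compartment that fills most of a grown plant cell, and let water move between vacuole and cytosol as the cell swells, shrinks or adjusts to osmotic stress. In Arabidopsis, TIP1 proteins are the main vacuolar water channels of elongating and mature cells and TIP2 proteins also conduct ammonia, while TIP3 genes are known from seeds and TIP5 from pollen. Salt outside the root lowers the water potential that the root cell has to match.

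Between 5620282 and 8711710 fragments per library fell in gene models. Across genes, the salt L-type library was closer to control nodal roots (Spearman correlation 0.923) than the control L-type library was (0.908). The S-type libraries had the same order, with 0.798 under salt and 0.791 under control. Each L-type library was closest to the other L-type library (0.966). The control L-type library had the fewest fragments, and the part of depth in these values was not tested. CESA4, CESA7 and CESA9, secondary wall cellulose synthases that mark xylem and other thickened tissue, held 464, 396 and 309 scaled fragments in salt L-type roots, against 317, 266 and 175 in control L-type roots. In nodal roots they held 1785, 1469 and 1359 under salt, against 2281, 2154 and 1817 under control. By level per transcript length (FPKM), the L-type values were 20.0, 17.8 and 12.3 under salt, against 18.9, 20.9 and 7.06 under control. CESA7 was thus not higher in salt L-type roots by that measure. Of the 5 tissue markers with a checked name, the green tissue gene CAB1R held between 27 and 59 fragments in the salt libraries, against 49 to 153 in the control libraries of the same root types. CAB2R, of the same family, had 21 fragments in salt nodal roots, against 113 in control nodal roots, and at most 3 in each lateral root library. NIP2-1 (Lsi1), a silicon channel of root exodermis and endodermis, had 3659 fragments or more in every library. In bulk roots, fewer cells of a type and less RNA per cell cannot be told apart.

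TIP1-1 was the most abundant of the 4 genes in every library by level per transcript length (FPKM). Its locus spans chromosome 3, 2562812 to 2564646 (IRGSP-1.0), and the files give the same span to a further model, Os03g0146200, which held at most 22 fragments in any library. Values in scaled fragments, the deposited fragment counts after the authors' factor for each library, were 3547 in salt L-type, 1741 in salt S-type and 5375 in salt nodal roots, against 5620, 1672 and 9685 in control L-type, S-type and nodal roots. The level in control nodal roots was 1634 FPKM, rank 15 of all gene models there, and the lowest level was 287 FPKM in salt S-type roots. The 2 S-type libraries were the lowest and could not be separated from each other within counting error. A neighbouring pair in the order, control L-type and salt nodal roots, was separated by little more than counting error.

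TIP1-2, the other TIP1 gene, was less abundant than TIP1-1 in every library and had another order of levels. It lies on chromosome 1, 43115747 to 43117221. Its scaled fragments were 372 in salt L-type, 417 in salt S-type and 1017 in salt nodal roots, against 269, 698 and 595 in the control libraries of the same root types. Salt nodal roots were the highest and control L-type roots the lowest, at 150 and 40.6 FPKM. The range from lowest to highest level, 3.69-fold, was the narrowest of the 4 genes. Salt L-type and salt S-type roots could not be separated within counting error.

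TIP2-1 was highest in the nodal roots of both treatments. Its locus on chromosome 2, 26608375 to 26609819, is shared with the model Os02g0658150, which held at most 3 fragments in any library. Scaled fragments were 712 in salt L-type, 340 in salt S-type and 1809 in salt nodal roots, against 907, 487 and 3840 in the control libraries. Every step in this order was larger than counting error, and the level spanned 10.9-fold, with 581 FPKM in control nodal and 53.1 FPKM in salt S-type roots.

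TIP2-2 had the widest range, 33.4-fold by FPKM. It lies on chromosome 6, 13407319 to 13408715. Scaled fragments were 2986 in salt L-type, 362 in salt S-type and 5164 in salt nodal roots, against 2987, 219 and 7577 in control roots. The 2 L-type libraries were alike within counting error. With 1056 FPKM in control nodal roots it stood at rank 45, and with 31.6 FPKM in control S-type roots at rank 6067.

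**Figure D1:**
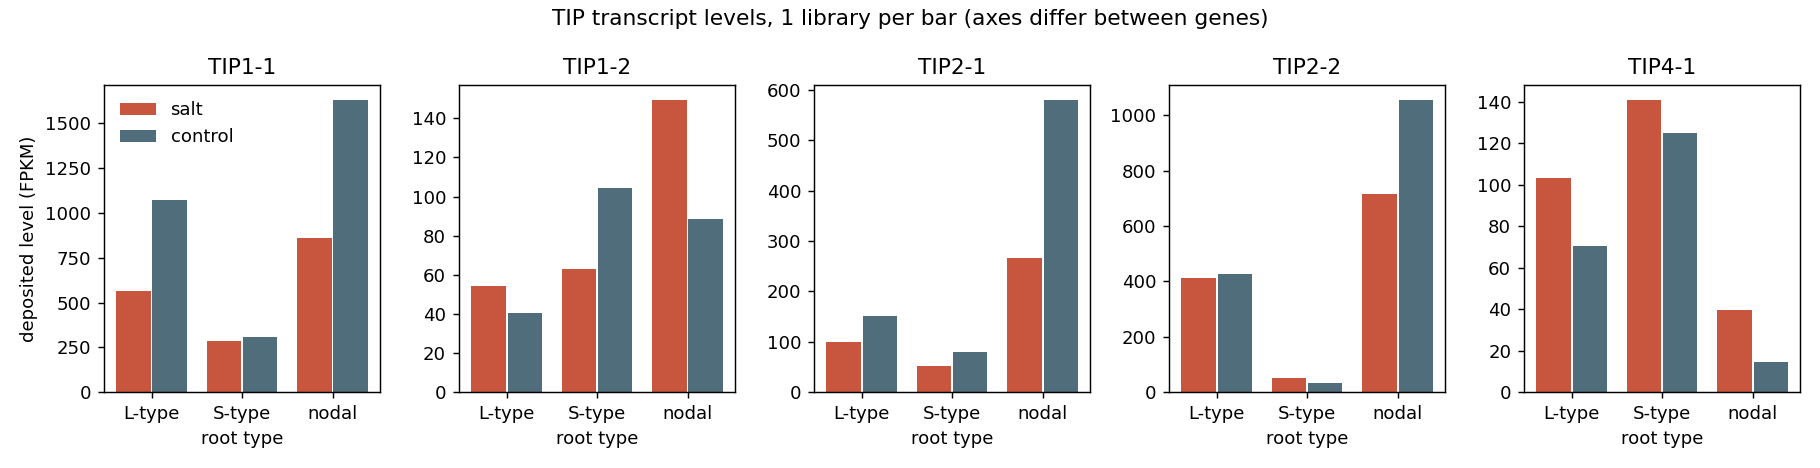
Deposited levels (FPKM) of TIP1-1, TIP1-2, TIP2-1, TIP2-2 and TIP4-1 by root type, with 1 library per bar, salt in red and control in blue and a separate axis for each gene. TIP1-1, TIP2-1 and TIP2-2 are lowest in S-type roots, TIP1-2 is highest in salt nodal roots (150 FPKM) and TIP4-1 is highest in S-type roots.

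Of the other TIP genes, 6 were listed and the names of 4 could be checked against the reference table. TIP4-1 (Os05g0231700, chromosome 5, 8000547 to 8002989), of a subgroup apart from TIP1 and TIP2, was the one with more than traces. Its scaled fragments were 782 in salt L-type, 1033 in salt S-type and 296 in salt nodal roots, against 517, 918 and 110 in control roots. The order of root types was thus the reverse of that of TIP2-1 and TIP2-2, and each step exceeded counting error. The seed and pollen types were at or near 0. TIP3-2 had 0 fragments in every library, TIP3-1 at most 3 and TIP5-1 at most 3.

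The first comparison asks how the TIP genes differ between root types over both treatments. TIP1-1, TIP2-1 and TIP2-2 were lower in S-type than in nodal roots, and TIP2-2 showed the largest difference. In an additive limma model with root type and treatment, TIP2-2 was lower in S-type roots by a log2 change of -4.48 (SE 0.29, limma adjusted p = 0.000307). TIP2-1 differed by -2.71 (SE 0.19, limma adjusted p = 0.000353) and TIP1-1 by -2.09 (SE 0.24, limma adjusted p = 0.00101). TIP1-2 did not pass, with -0.54 (SE 0.34, limma adjusted p = 0.225). So 3 of the 4 genes were called lower and 0 higher, where 28% of the 20136 tested genes were called lower and 55.1% in either direction. The median over the 4 was -2.40, beside -0.0043 over all genes tested. TIP4-1 went the other way, higher in S-type than in nodal roots by 2.41 (SE 0.29, limma adjusted p = 0.00116), where 27.1% of genes were called higher. The error of this model rests on how far root type differences vary between salt and control, with each gene's variance drawn toward a trend over all genes. It is not a spread between replicates.

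TIP1-1, TIP2-1 and TIP2-2 were higher in L-type roots when set against S-type roots. TIP2-2 differed by 3.42 (SE 0.29, limma adjusted p = 0.00199), TIP1-1 by 1.40 (SE 0.24, limma adjusted p = 0.00865) and TIP2-1 by 0.99 (SE 0.19, limma adjusted p = 0.0121). These are 3 members called higher and 0 lower, where 18.8% of genes were called higher, 15.2% lower and 34% in either direction. The call of TIP2-1 did not hold without the treatment term (adjusted p = 0.0727). TIP1-2 had -0.75 (SE 0.34, limma adjusted p = 0.139) and TIP4-1 had -0.60 (SE 0.29, limma adjusted p = 0.152), neither past the threshold.

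Against nodal roots, TIP2-1 alone among the 4 passed, lower in L-type roots by -1.71 (SE 0.19, limma adjusted p = 0.0160), where 5.02% of genes were called lower and 11.8% in either direction. TIP1-2 had -1.29 (adjusted p = 0.0622), TIP2-2 -1.07 (adjusted p = 0.0634) and TIP1-1 -0.69 (adjusted p = 0.109). With DESeq2 on recovered fragments the count of members called lower was 3, the added ones being TIP1-2 and TIP2-2. DESeq2 called 936 of all 20136 genes lower in this comparison. TIP4-1 was higher in L-type than in nodal roots by 1.81 (SE 0.29, limma adjusted p = 0.0227), where 6.82% of genes were called higher.

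**Figure D2:**
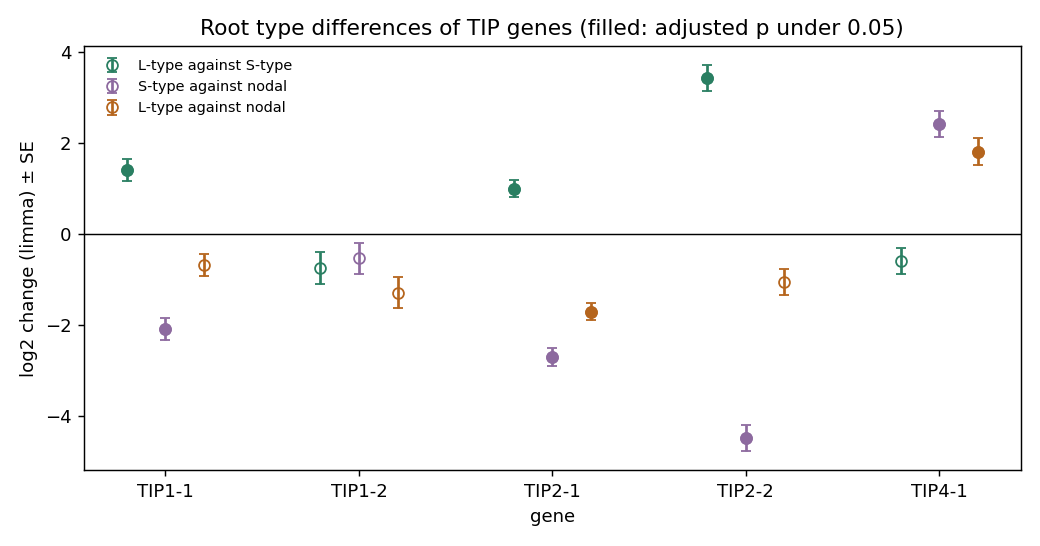
Log2 change between root types over both treatments for each TIP gene, from the additive limma model, with bars of 1 SE and filled points where the adjusted p is under 0.05. TIP1-1, TIP2-1 and TIP2-2 are lower in S-type than in nodal roots (TIP2-2 by -4.48), and TIP4-1 is higher (2.41).

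Where L-type roots fell relative to S-type and nodal roots differed from gene to gene. On the log2 scale, with S-type roots at 0% and nodal roots at 100%, L-type roots stood for TIP2-2 at 79.4% under salt and 73.7% under control, and for TIP1-1 at 63.1% under salt and 69.0% under control. TIP2-1 stood at 44.1% under salt and 30.1% under control. TIP4-1, where S-type roots are the higher end, stood at 22.3% and 27.1%. For TIP1-2 the L-type value did not lie between the others but below both under each treatment. Under salt TIP1-2 stood at -12.6%, within counting error of S-type roots. Under control nodal minus S-type roots was only -0.23 for TIP1-2 on the log2 scale, so no position is given. Genes with at least 4-fold more in nodal roots over S-type roots had a median of 71.6% under salt over 1052 genes and 59.3% under control over 1316 genes. The position of TIP2-1 lay below the lower quartile of those genes under both treatments, whereas TIP1-1 and TIP2-2 lay inside the quartiles of both treatments. Under salt TIP1-1 was not itself one of those genes, as its log2 difference of nodal over S-type roots was 1.63, less than 4-fold. The secondary wall markers moved with these comparisons. CESA4 held 60.3 scaled fragments in salt S-type and 1785 in salt nodal roots, and 46.3 in control S-type and 2281 in control nodal roots. Of the 5 markers 4 were tested: CESA4, CESA7 and CESA9 were lower in each kind of lateral than in nodal roots, and these and CAB1R were higher in L-type against S-type roots. The root gene NIP2-1 (Lsi1) was higher in L-type than in nodal roots by 1.23 (limma adjusted p = 0.0314). Against S-type roots its L-type value was lower by -1.12 (limma adjusted p = 0.0161). The part of these genes in the TIP differences was not tested.

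The second comparison asks whether salt moved the TIP genes in the same way in all root types. None of the 4 passed the threshold. TIP2-1 had a log2 change of -0.66 (SE 0.15, limma adjusted p = 0.314), with lower values under salt in all 3 root types. TIP1-1 had -0.49 (SE 0.19, limma adjusted p = 0.469), TIP1-2 had 0.16 (SE 0.28, limma adjusted p = 0.861) and TIP2-2 had 0.05 (SE 0.23, limma adjusted p = 0.951). By limma 0 members were called and 2 had an unadjusted p under 0.05, and the same 0 and 2 came from edgeR and from DESeq2. Of the 20136 genes tested, 2115 had an unadjusted p under 0.05 by limma, 2065 by edgeR and 1043 by DESeq2. After adjustment limma called 0.119% of all genes, 0.0646% as higher and 0.0546% as lower. TIP4-1 had 0.72 (SE 0.23, limma adjusted p = 0.425), with higher values under salt in all 3 root types. These values depended on which root types were in the model. Without the S-type libraries they were -0.77 for TIP1-1, 0.61 for TIP1-2, -0.73 for TIP2-1, -0.29 for TIP2-2 and 0.99 for TIP4-1. Without the nodal libraries they were -0.30 for TIP1-1, -0.14 for TIP1-2, -0.43 for TIP2-1, 0.36 for TIP2-2 and 0.38 for TIP4-1. Without the L-type libraries TIP1-2 had 0.02 and TIP2-2 had 0.10. None of the 5 genes was called in any of these fits.

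The third comparison takes salt against control within each root type, where a single pair of libraries allows no test and the intervals cover counting error only. In nodal roots 3 of the 4 genes had lower values under salt and 1 a higher value. TIP2-1 had a log2 ratio of -1.09 (95% counting interval -1.16 to -1.01), that is 0.471 times the control value. TIP1-1 had -0.85 (-0.89 to -0.81) and TIP2-2 had -0.55 (-0.60 to -0.51). TIP1-2 had 0.77 (0.64 to 0.91), and TIP4-1 had 1.42 (1.13 to 1.73), or 2.67 times the control value. At least 2-fold, 1 of the 4 members was lower and 0 higher, where 1.75% of genes were lower, 1.27% higher and 3.02% either. Of these nodal values, that of TIP4-1 rests on 357 fragments under salt and 127 under control. All 5 tissue markers also had lower values in salt than in control nodal roots, with log2 ratios of -0.35 for CESA4, -0.55 for CESA7, -0.42 for CESA9, -2.01 for CAB1R and -2.43 for CAB2R, each interval below 0. NIP2-1 (Lsi1), the root gene named beside these markers, went the other way, with 0.83 (0.77 to 0.89). The part of these genes in the nodal ratios of the TIP genes was not tested.

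In S-type roots TIP2-2 and TIP1-2 had ratios of the opposite sign to those in nodal roots. TIP2-2 had a higher value under salt, with a log2 ratio of 0.72 (0.47 to 0.99), and TIP1-2 a lower one, with -0.74 (-0.93 to -0.56). TIP1-1 had 0.06 (-0.04 to 0.16), which counting error alone could give, and the deposited FPKM gave -0.10. TIP2-1 had -0.52 (-0.73 to -0.31) and TIP4-1 had 0.17 (0.03 to 0.31). No member reached a 2-fold difference in either direction, where 1.8% of genes were lower, 1.63% higher and 3.43% either. Of the markers, CAB1R had -1.34 in this pair, and the intervals of the other 4 held 0. NIP2-1 (Lsi1) had 0.04 (0.02 to 0.07).

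In L-type roots TIP1-1 had -0.66 (-0.73 to -0.60) and TIP2-1 had -0.35 (-0.50 to -0.20). TIP2-2 had -0.0002 (-0.08 to 0.08). TIP1-2 had 0.47 (0.23 to 0.71) and TIP4-1 had 0.59 (0.42 to 0.77). Again 0 members reached 2-fold, where 4.22% of genes were lower, 1.64% higher and 5.86% either. For TIP1-1 the deposited FPKM gave -0.92 in L-type roots, and for TIP2-1 it gave -0.59. In this pair the markers CESA4, CESA7 and CESA9 had log2 ratios of 0.55, 0.58 and 0.81, and CAB1R had -1.80. The deposited FPKM gave 0.08, -0.22 and 0.73 for CESA4, CESA7 and CESA9, and -1.73 for CAB1R. NIP2-1 (Lsi1) had 0.30 (0.25 to 0.34) by scaled fragments. The part of these genes in the TIP ratios was not tested.

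**Figure D3:**
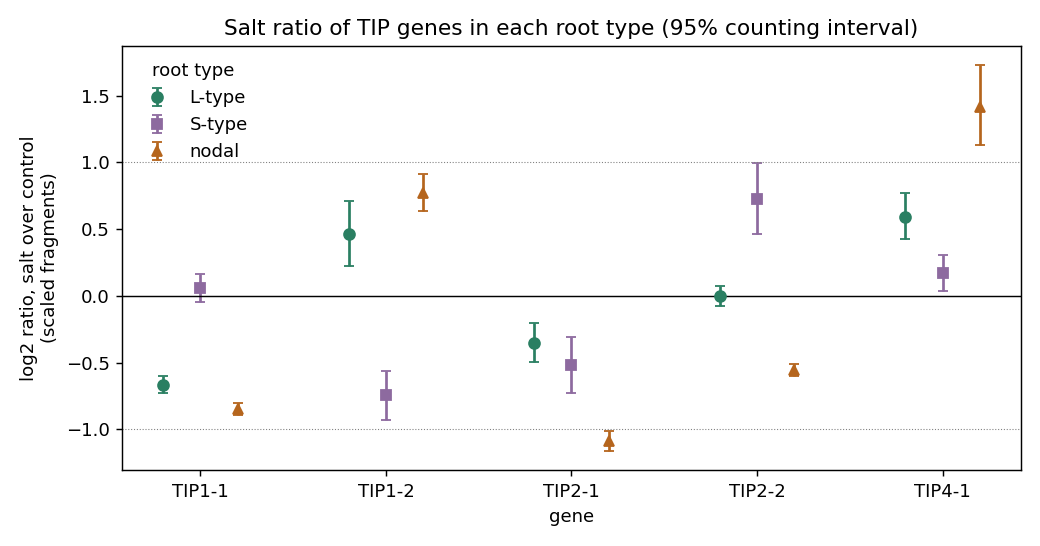
Log2 ratio of scaled fragments, salt over control, for each TIP gene in L-type (circles), S-type (squares) and nodal roots (triangles), with 95% counting intervals and dotted lines at 2-fold. TIP1-2 is above 0 in L-type and nodal roots and below 0 in S-type roots, while TIP2-2 is below 0 in nodal and above 0 in S-type roots.

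The salt ratios of root types were then set against each other, which the design does not allow to be tested. For TIP1-2 the ratio in S-type roots minus that in nodal roots was -1.51 (-1.74 to -1.29), and L-type minus S-type was 1.21 (0.91 to 1.51). For TIP2-2, S-type minus nodal was 1.28 (1.02 to 1.54) and L-type minus S-type was -0.73 (-0.99 to -0.46). TIP1-1 had 0.91 (0.80 to 1.02) for S-type minus nodal roots and -0.72 (-0.84 to -0.60) for L-type minus S-type roots. TIP2-1 had 0.57 (0.35 to 0.79) for S-type minus nodal and 0.74 (0.57 to 0.90) for L-type minus nodal roots. Differences of at least 2-fold for S-type minus nodal roots occurred in 3.93% of genes toward lower and 4.19% toward higher values. TIP1-2 is among the first and TIP2-2 among the second. For L-type minus S-type roots they occurred in 6.22% toward lower and 3.35% toward higher values, TIP1-2 among these last. For L-type minus nodal roots the shares were 4.84% and 3.29%, with 0 members. In that comparison TIP1-1 had 0.19 (0.11 to 0.26) by scaled fragments and 0.0008 by FPKM.

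The summed level of the 8 TIP genes with a checked name was lowest in S-type and highest in nodal roots under both treatments. Listed TIP genes without a checked name are left out of this sum and of the shares below. It was 1236 FPKM in salt L-type, 595 in salt S-type and 2033 in salt nodal roots. In control L-type, S-type and nodal roots the sum was 1764, 649 and 3374 FPKM. Salt over control was 0.701 in L-type, 0.918 in S-type and 0.603 in nodal roots. Taken as a share of all fragments in genes, without regard to length, these ratios were 0.868, 0.995 and 0.655. By both measures the ratio was nearest to 1 in S-type roots. The FPKM total of all genes also differed between libraries. As a share of that total, these 8 TIP genes held 0.172% in salt L-type, 0.0634% in salt S-type and 0.275% in salt nodal roots. The shares in control L-type, S-type and nodal roots were 0.206%, 0.0630% and 0.417%.

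TIP1-1 made up between 42.4% and 61.0% of the summed FPKM in each library, the largest part in all 6. TIP2-2 was the second in L-type and nodal roots, with 33.2% in salt and 24.2% in control L-type roots and 35.2% in salt and 31.3% in control nodal roots. In S-type roots it held 8.63% under salt and 4.88% under control, and TIP4-1 was second there with 23.7% under salt and 19.3% under control. TIP1-2 held 7.36% in salt nodal roots, against 2.62% in control nodal roots. In S-type roots its share was 10.6% under salt, against 16.1% under control. The level of TIP1-1 was 5.76 times that of TIP1-2 in salt nodal roots, against 18.5 times in control nodal roots. In L-type roots it was 10.4 times under salt, against 26.5 times under control, and in S-type roots 4.57 times under salt, against 2.94 times under control. The level of TIP2-2 was 4.11, 2.68 and 0.967 times that of TIP2-1 in salt L-type, nodal and S-type roots, against 2.82, 1.82 and 0.397 times in the control libraries of the same root types.

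**Figure D4:**
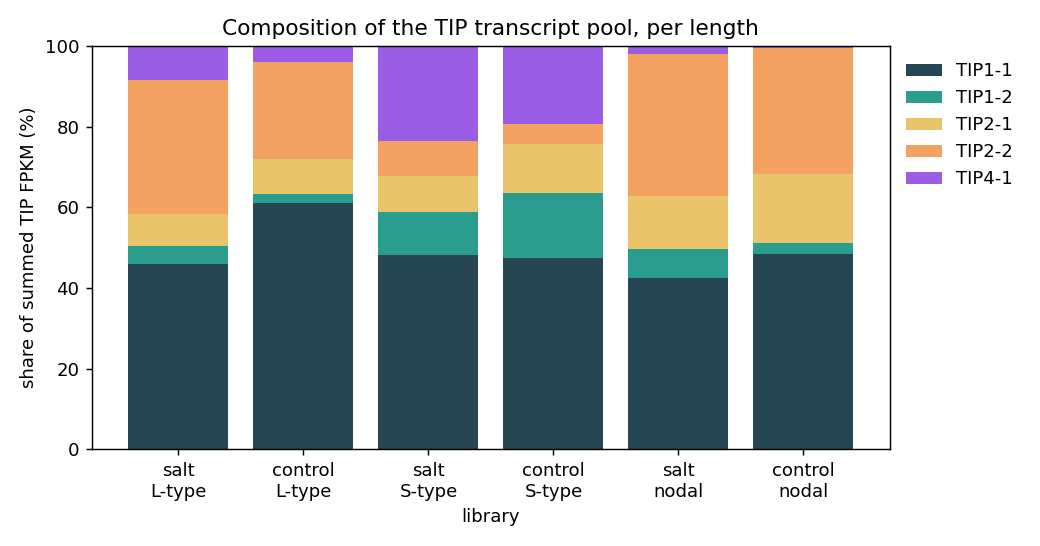
Share of the summed FPKM of 8 TIP genes held by 5 of them in the 6 libraries, 1 library per bar, the other three being too low to see. TIP1-1 is the largest part in every library, TIP2-2 is large in L-type and nodal roots only, and TIP4-1 takes 23.7% in salt and 19.3% in control S-type roots.

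The authors' deposited table of pair tests gives 7 calls in 60 tests of the 4 genes, where 0.321% of all tests in it were called. These 60 tests reuse the same 6 libraries and are not independent of each other. Of the 7 calls in the authors' deposited table, TIP2-2 had 6 and TIP2-1 had 1. Each call set an S-type library against one of another root type. Some of these pairs also differed in treatment. They were control S-type against salt L-type, control S-type against salt nodal, and salt S-type against control nodal roots. In the authors' deposited table the share called over all genes was 0.583% in salt S-type against salt nodal roots, 0.89% in salt S-type against control nodal roots and 1.1% in control S-type against control nodal roots. That share in the authors' deposited table was 0.85% in salt nodal, 0.306% in salt L-type and 0.136% in control L-type roots, each against control S-type roots. For TIP2-2 the authors' deposited table gives q = 0.0199 for salt S-type against salt nodal roots, with 51.3 and 716 FPKM. For control S-type against control nodal roots, with 31.6 and 1056 FPKM, the authors' deposited table gives the same q of 0.0199. For salt S-type against control nodal roots, a pair that differs in treatment too, the authors' deposited table calls TIP2-1, with 53.1 and 581 FPKM. Within a treatment, TIP2-1 in S-type against nodal roots was not called in the authors' deposited table, with q = 0.299 under salt and 0.118 under control. Of the 12 tests of salt against control within a root type in the authors' deposited table, 0 were called, and each had q = 0.999. No p from 1 library per group rests on replicates.

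Among the other aquaporins, the plasma membrane PIP genes had 8 tested members of 11. For salt 0 of these passed, with a median log2 change of -0.39, beside -0.22 for the 4 TIP genes and -0.01 over all genes. PIP2-4 had the lowest value (-1.51, SE 0.29, limma adjusted p = 0.229) and PIP1-2 the highest (-0.08, SE 0.11, limma adjusted p = 0.835). In S-type against nodal roots 4 of the 8 PIP genes were called lower and 1 higher, where 28% of all genes were called lower and 27.1% higher, with PIP2-6 the lowest (-3.02) and PIP1-3 the highest (0.74, adjusted p = 0.0737). The 1 called higher, named after its value was seen, was PIP2-3 (0.74, adjusted p = 0.0477). In L-type against S-type roots 3 were called higher and 2 lower, beside 18.8% and 15.2% of all genes. In L-type against nodal roots 0 were called higher and 4 lower, beside 6.82% and 5.02% of all genes. Of 5 NIP and SIP genes, which carry small solutes or lie in inner membranes, 4 were tested and 0 passed for salt, with a median of 0.04. In S-type against nodal roots 1 of these 4 was called higher and 2 lower, beside 27.1% and 28% of all genes. The silicon channel NIP2-1 (Lsi1) was higher there by 2.35 (SE 0.23, limma adjusted p = 0.000718) and NIP2-2 (Lsi6) lower by -3.52 (SE 0.16, limma adjusted p = 0.000235).

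Likeness of pattern was measured by Pearson's r of log2 values over the 6 libraries, among 14941 other genes with a mean of at least 50 scaled fragments. Only 19 genes had r above 0.9 with TIP1-2, against 1882 with TIP1-1, 1569 with TIP2-1 and 2613 with TIP2-2. The genes most like TIP1-2 were Os02g0114700 (r = 0.979), Os12g0539750 (0.962) and Os06g0686500 (0.960). TIP1-1 was most like Os11g0602500 (0.997), Os07g0693000 (0.997) and Os08g0477100 (0.996). TIP2-1 had Os02g0701600, Os09g0539800 and Os01g0686800 beside it, with r = 0.999, 0.999 and 0.998. For TIP2-2 they were Os02g0142950, Os03g0812000 and Os03g0852900, each with r = 0.999. The measure ignores the size of the change: Os11g0602500 ran from 88.2 to 170 scaled fragments, and TIP1-1 from 1672 to 9685. Between the members, r was 0.951 for TIP1-1 and TIP2-2, 0.929 for TIP1-1 and TIP2-1, and 0.042 for TIP1-1 and TIP1-2. TIP4-1 had r = -0.982 with TIP2-1. These 6 libraries hold only 3 root types and 2 treatments, so such values describe the pattern and are not tested.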

How the data were processed

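Fragments were counted per gene in 6 libraries, 1 per group, from strand-specific mRNA-seq (per the labels' protocols). The submitters' processing notes name Cuffdiff 2.2.1, Cufflinks 2.2.1, TopHat2 2.0.11, Bowtie and Trimmomatic 0.32, and as genome IRGSP-1.0. Settings, including the use of strand in counting, are not given in the sources used here. The deposited count table holds a signal: fragment counts per gene times 1 factor per library. In each library, 99.9% or more of the values above 0 were whole multiples of that factor within 0.02 fragments, and whole fragments were recovered from them. The authors also deposited FPKM, p-values and q-values for 15 pairs of libraries. The count table has 24 further columns (variances and status) that were not used.

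Values after TMM scaling, with 1 added, were taken to log2 and fitted by limma-trend (limma 3.58.1, R 4.3.3), with root type and treatment in 1 additive model that leaves 2 residual degrees of freedom. It ran on 20136 genes that passed filterByExpr on recovered fragments. The threshold for a call was 0.05 after Benjamini-Hochberg adjustment over all of them. All 4 members passed the filter. Pair ratios are log2 of scaled values plus 1, and genes count as 2-fold where 1 or more of the libraries compared held 50 or more scaled fragments. Ratio intervals are exact conditional binomial at 95%. Intervals of differences of ratios use the normal approximation, and both cover counting error only. edgeR 4.0.16 and DESeq2 1.42.0 ran as alternatives on recovered fragments. The fit was also run on simulated counts with known changes. These held no salt effect that varied between root types, so they do not show how often calls are wrong in these data.

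Gene names were checked in a reference gene table of another assembly by chromosome, order among listed genes and length (ratio between 0.4 and 1.6), and 29 of 36 listed genes passed. Named were the 4 members, the other TIP genes that passed, the highest and lowest member of the other lists, and the 3 genes most like each member. Vacuolar proton pumps and 2 further TIP identifiers had no checked name and are not reported. Members and lists were chosen with earlier results of these data known. Start coordinates are 1-based, 1 above the files' text.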

Additional observations from a re-analysis of the deposited data

Results flagged for a closer look

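For TIP1-2 the salt ratio lay above 0 in L-type and nodal roots and below 0 in S-type roots, with counting intervals on opposite sides of 0. On the log2 scale L-type minus S-type was 1.21 and S-type minus nodal was -1.51. For TIP2-2 the ratio lay above 0 in S-type and below 0 in nodal roots, and S-type minus nodal was 1.28. With 1 library per group these 3 differences were not tested.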

How the results depend on the processing

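The members' calls were recomputed under 13 alternatives for salt and 10 for root types. Of 172 values of the 4 genes, 167 kept their direction and their side of the threshold. DESeq2 on recovered fragments called 3 members lower in L-type than in nodal roots, against 1 by limma. Of all 20136 genes, DESeq2 called 936 lower there and limma 1011. In the DESeq2 fit TIP1-2 had -1.33 (adjusted p = 0.00461) and TIP2-2 had -1.11 (adjusted p = 0.00480). The call of TIP2-1 for L-type against S-type roots was lost without the treatment term, at 0.99 (adjusted p = 0.0727). For salt, 2 values reversed and neither had been called: TIP2-2 with -0.29 without the S-type libraries and TIP1-2 with -0.14 without the nodal libraries. Over all genes, the count called for salt was 24 by limma, 28 by edgeR, 172 by DESeq2, 2 with FPKM, 2 with a mean of at least 50 scaled fragments, 0 without the root type block, 44 without the L-type, 7 without the nodal and 1 without the S-type libraries. Of 45 pair ratios under another scaling or unit, 8 moved beyond their counting interval, and TIP1-1 in L-type roots ranged from -0.92 by FPKM to -0.57 as a share of fragments in genes. The causes were not tested. The lowest adjusted p of the 4 genes for salt was 0.163, for TIP2-1 by DESeq2. The salt model already sets salt against control within root type. By replicate number, no paired analysis was possible because the groups share only number 1.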
